A study of Mus musculus with 40 samples.

Results

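Branching lung organoids of the mouse, grown from epithelial cells of embryonic lung tips, were profiled by RNA sequencing after being cut into pieces by size and position. The libraries were picked out by their labels and make up 9 of the 40 samples in the series. They are 4 half-pieces (up-half, down-half, left-half and right-half), 4 quarter-pieces (up-half-left, up-half-right, down-half-left and down-half-right) and 1 intact organoid. Each size is 1 group, so half-pieces were compared with quarter-pieces, and all pieces with the intact organoid. Position gave a further pair of comparisons: the up pieces (up-half, up-half-left and up-half-right) against the down pieces (down-half, down-half-left and down-half-right), and the left pieces (left-half, up-half-left and down-half-left) against the right pieces (right-half, up-half-right and down-half-right). The labels give no genotype, strain, culture day, starting stage or treatment for these libraries, and do not say whether the pieces came from 1 organoid or from several, but the sex-linked transcripts described next show that cells of more than 1 animal are represented among the pieces. No position was repeated, so p-values measure the spread between these pieces only, and the intact organoid has no replicate.

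In the embryonic lung, the ends of the branching airway tree hold tip progenitor cells, marked by Sox9 and Id2, which later give rise to the gas-exchanging part of the lung. There, type 2 cells make surfactant, the lipid and protein film that keeps the air spaces open, and flat type 1 cells line the air spaces. Epithelial cells also sense damage and microbes, and answer with chemokines through NF-kappaB and with antiviral genes through interferon signalling.

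Values are in TPM (transcripts-per-million), a level scaled by gene length and library, which keeps no record of read depth, so the depth behind each value is unknown. In all 9 libraries the defining genes of lung epithelium were high, with Nkx2-1, the lung lineage factor, between 252 and 372 TPM. Sftpc, the surfactant protein of type 2 cells, took between 4.44% and 8.62% of all TPM, and Ager, a type 1 cell gene, lay between 737 and 1615 TPM. Sox2, which marks the airway side of the lung epithelium, was at 0 in 8 libraries and at 0.2 TPM in up-half-right. Foxj1 of ciliated cells was at 0 in 8 libraries and at 0.17 TPM in down-half. Other markers of these cell types were not all at the floor. In pieces, the airway gene Cyp2f2 had 3.05 to 23.0 TPM and Scgb1a1 0 to 8.34 TPM, while Scgb3a2 was at 0. Of the ciliated genes, Tppp3 had 24.6 to 116 TPM in pieces and Dynlrb2 0 to 12.1 TPM. The mesenchyme list summed to between 44.6 and 110 TPM in the pieces and to 23.0 TPM in the intact organoid. Between 13051 and 13573 genes reached 1 TPM. Mitochondrially encoded genes took 9.31 ± 1.03% of TPM in half-pieces and 8.57 ± 0.61% in quarter-pieces (SD, n = 4 each; two-sided exact permutation test, p = 0.314, where the smallest possible p is 0.0286).

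The libraries did not all carry the same sex-linked transcripts. Xist, the RNA that silences 1 X chromosome in female cells, stood at 212 TPM in up-half-left and 216 TPM in the intact organoid, and at 5.4 TPM or less in the other 7 pieces. The Y-linked gene Eif2s3y was at 0 in up-half-left and in the intact organoid, and between 65.2 and 92.8 TPM in the other 7 pieces. Ddx3y, Kdm5d and Uty, also on the Y chromosome, divided the libraries in the same way. Kpna2, an autosomal gene for a nuclear import receptor, had 51.5 TPM in up-half-left and 63.9 TPM in the intact organoid, against at most 6.99 TPM elsewhere. Itln1, an autosomal gene for a lectin, had 56.1 TPM in up-half-left and 57.2 TPM in the intact organoid, against at most 6.81 TPM elsewhere. The comparison of the pieces with the intact organoid therefore also sets 7 libraries with Y-linked transcripts against a library without them, and the sex-linked difference and the cutting cannot be told apart. Up-half-left is also a quarter-piece, an up piece and a left piece, so this difference enters the comparisons by size, height and side as well.

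A different pair shared other genes. Cwc22, a splicing factor, had 324 TPM in right-half and 379 TPM in down-half-right, against 25.2 to 43.2 TPM in the other 7 libraries. Tgtp2, an interferon-induced GTPase, had 12.3 TPM in right-half and 6.92 TPM in down-half-right, and 2.69 TPM or less elsewhere. The genome-wide deviations of these 2 libraries also had the highest correlation of all 36 pairs (Pearson's r = 0.35 over 8024 genes, given as a description). Up-half, down-half and left-half shared high Xlr3a (33.1, 18.5 and 36.4 TPM), an X-linked lymphocyte-regulated gene, while right-half was at 0, the quarter-pieces at 4.59 TPM or less and the intact organoid at 3.94 TPM. Antxr1, a collagen-binding receptor, was high in the same 3 half-pieces (41.4, 26.5 and 37.1 TPM), and had 5.96 TPM in right-half, 3.72 to 7.85 TPM in the quarter-pieces and 6.83 TPM in the intact organoid. Cwc22, Xlr3a, Antxr1 and H2-Eb1 were singled out after their values were seen.

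**Figure D1:**
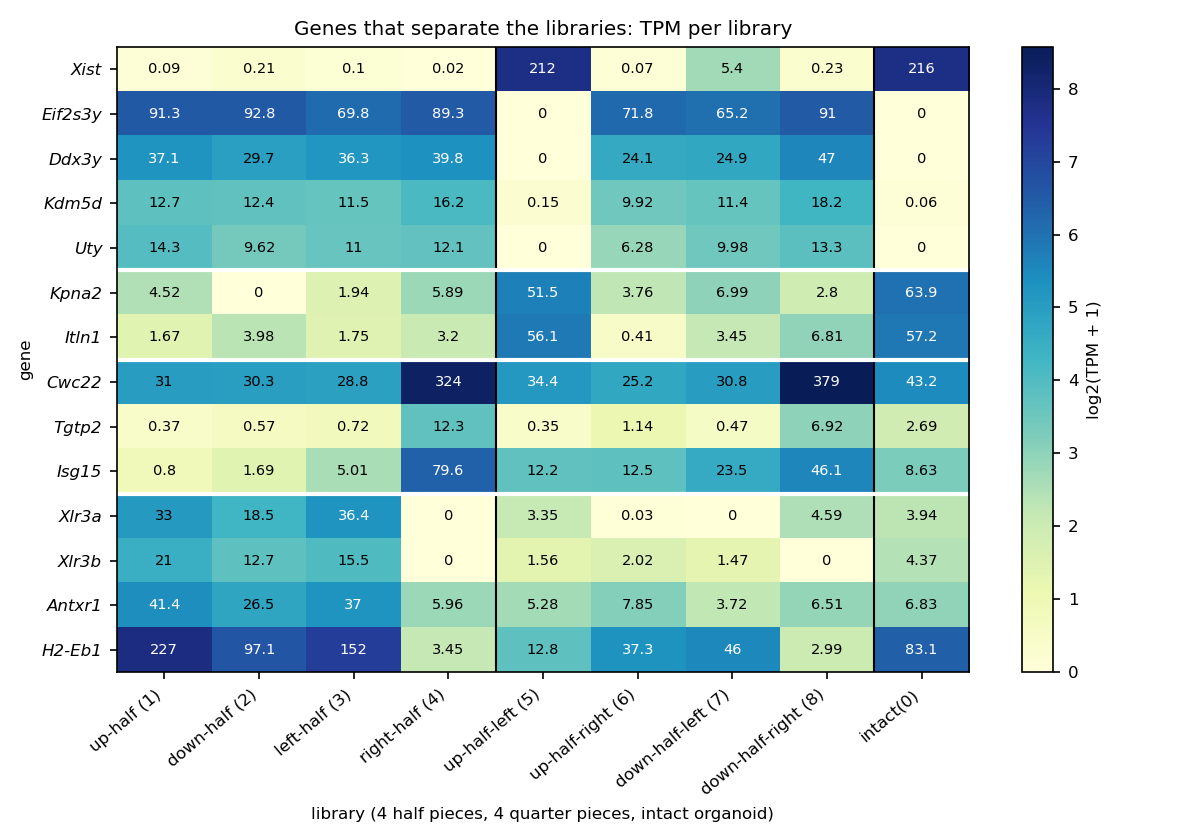
TPM of 14 genes in each library, with half-pieces at the left, quarter-pieces in the middle and the intact organoid at the right; colour is log2(TPM + 1) and the printed number is TPM. Up-half-left and the intact organoid share Xist and lack the Y-linked transcripts, and right-half and down-half-right share high Cwc22 (324 and 379 TPM).

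Single pieces stood apart too. Of the protein-coding genes, 24 had a gap of at least 2 log2 units between a high and a low set of libraries, with a level of at least 10 TPM on the high side. In up-half, Dcn, which encodes the matrix proteoglycan decorin, had 29.7 TPM, against at most 4.36 TPM in the other pieces and 0 in the intact organoid. Gata3, a transcription factor, had 11.7 TPM in up-half, 1.21 TPM or less in the other pieces and 1.62 TPM in the intact organoid. Slc2a3, a glucose transporter, had 110 TPM in up-half, 18.2 TPM or less in the other pieces and 24.5 TPM in the intact organoid. Down-half-left was high for Spp1, which encodes osteopontin (25.4 TPM, against at most 2.22 TPM in the other pieces and 0 in the intact organoid), and for Hhex, a homeobox factor (40.6 TPM, against at most 7.26 TPM in the other pieces and 4.36 TPM in the intact organoid). Chil1, a chitinase-like secreted protein, was low in up-half-right alone, at 459 TPM, against 2061 to 4626 TPM in the other pieces and 2793 TPM in the intact organoid. The 15 genes with the largest spread over the 8 pieces held no protein-coding gene. Of them, 12 were annotated as pseudogenes, for which reads can be split between near-identical copies: Rpl38-ps2, Rps24-ps3, Rps3a2, Rps2-ps13 and Rps3a3 were among them, and Gm28438 had the largest SD. The others were Gm14303, AC123659.1, Gm10020, Gm14539, Gm43940, Gm48275, Gm6166, Gm43078 and Gm8730.

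The pieces differed from one another about as much as from the intact organoid. Over 8024 genes with a mean of at least 10 TPM, the median absolute log2 difference was 0.16 to 0.40 in the 28 pairs of pieces and 0.22 to 0.32 in the 8 pairs of a piece with the intact organoid. In 4 pairs of numbered replicates from culture groups of the same series, taken from a separately normalized table, it was 0.10 to 0.37. These groups differ in culture factors by their labels. The pair labelled ALL had 0.37, and the pairs labelled ALL-VC, ALL-MTG and ALL-FGF10 had 0.19, 0.24 and 0.10.

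Size was examined first. No gene passed the test, and the lists with the most members at an unadjusted p under 0.05 were those of inflammation and epithelial defence, type 1 cells and the basement membrane. With limma on log2(TPM + 1), 0 of 15017 genes (0%) had an adjusted p under 0.05 for half-pieces minus quarter-pieces, and the smallest adjusted p was 0.533. At an unadjusted p under 0.05 there were 799 genes (5.32%), of which 481 (3.20%) were higher and 318 (2.12%) lower in half-pieces. The groups did not overlap for 281 genes (1.87%) that were higher in half-pieces and 173 (1.15%) that were lower, 3.02% in all. The genes named next are those with the largest differences among the genes whose groups did not overlap, and none of them passed the test.

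Fxyd3, a regulator of the sodium pump (chr7:31068172-31076704, minus strand, mm10), led the genes that were higher in half-pieces. It had 22.5, 26.3, 24.1 and 9.16 TPM in up-half, down-half, left-half and right-half, against 1.84, 3.21, 5.31 and 2.08 TPM in up-half-left, up-half-right, down-half-left and down-half-right, and 7.0 TPM in the intact organoid. All 4 half-pieces lay above all 4 quarter-pieces, with right-half nearest to them, and the log2 difference was 2.37 ± 0.36 (SE; limma adjusted p = 0.780). Ccnd2, the cell cycle regulator cyclin D2, had 12.7, 29.0, 25.4 and 18.3 TPM in half-pieces, against 4.65, 11.9, 1.96 and 11.0 TPM in quarter-pieces. Here up-half lay close to the highest quarter-piece, and the intact organoid, at 3.62 TPM, lay among the quarter-pieces (log2 difference 1.59 ± 0.42, SE; limma adjusted p = 0.869). Arhgef40, a guanine nucleotide exchange factor, had 27.7, 44.2, 46.1 and 29.9 TPM in half-pieces, against 12.1, 16.9, 8.0 and 17.1 TPM in quarter-pieces and 14.0 TPM in the intact organoid. The others were Zfp647, a zinc finger gene (log2 difference 1.43), Moap1, a BAX-binding protein (1.43), Serpine2, a protease inhibitor (1.20), Ccdc80, a secreted matrix protein (1.14), Col4a6 (1.13), Emp1, an epithelial membrane protein (1.03), and the pseudogene Rpl21-ps8 (1.64).

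Of the 17 genes of the basement membrane list, which covers the protein sheet under an epithelium, 15 were tested. Of these, 6 were higher in half-pieces at an unadjusted p under 0.05 and 0 lower (background 3.20% higher), and the list's median difference was 0.51, against 0.07 over all genes. Among them were Col4a6, Col4a5, Lama3, Hspg2 and Lamc1. Col4a6, a collagen IV chain, had 16.4, 15.4, 16.0 and 12.3 TPM in half-pieces, against 6.66, 5.5, 4.0 and 10.3 TPM in quarter-pieces and 6.75 TPM in the intact organoid. Lama3, a laminin chain of epithelia, averaged 77.8 ± 11.9 TPM in half-pieces and 43.7 ± 16.6 TPM in quarter-pieces (SD, n = 4 each). For both genes down-half-right was the highest quarter-piece, for Lama3 at 67.7 TPM beside 67.8 TPM in right-half. The list's median was 0.28 without up-half and 0.24 without down-half-left, and 5 to 8 members had an unadjusted p under 0.05 when any 1 library was left out. Over all genes, 480 to 1724 had such a p in those settings. The mesenchyme markers summed to 49.2 to 104 TPM in half-pieces and 44.6 to 110 TPM in quarter-pieces. Of the 6 tested, the difference was above 0 for 3 and below 0 for 3. Col3a1, a fibrillar collagen, was at 0 in all 4 half-pieces and in the intact organoid. It had 1.53, 1.03, 5.02 and 1.85 TPM in quarter-pieces (log2 difference -1.62, limma adjusted p = 0.869). Col3a1 passed the filter through the quarter-pieces alone and lay near the floor, so its lack of overlap is no support for a difference. The part of mesenchymal cells in these values was not tested.

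The type 1 cell list gave a similar picture. At an unadjusted p under 0.05, 7 of its 20 genes were higher in half-pieces and 0 lower (background 3.20% higher), with a median difference of 0.29. Cav1, a protein of the membrane pits of type 1 cells, had 112, 95.7, 109 and 143 TPM in half-pieces, against 57.1, 73.3, 72.7 and 93.8 TPM in quarter-pieces and 86.0 TPM in the intact organoid. It was the only member whose groups did not overlap (background 1.87% higher), and its log2 difference was 0.63 ± 0.16 (SE, limma adjusted p = 0.869). The other 6 were Rtkn2, Col4a3, Col4a4, Akap5, Hopx and Lmo7. The count was 3 without left-half, 4 without right-half and 4 without down-half-left. Of the 20 type 2 cell genes, 3 were lower in half-pieces at an unadjusted p under 0.05 (background 2.12% lower), and the median was -0.12. They were the surfactant proteins Sftpd (log2 difference -0.56) and Sftpa1 (-0.58) and the phosphate transporter Slc34a2 (-0.36). That count was 0 when up-half, down-half, left-half or down-half-left was left out, and 5 without right-half or without down-half-right. The background moved as well: without down-half-right 1724 of all genes had such a p in either direction, against 799 with all libraries.

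Of the 16 genes of the inflammation and epithelial defence list 13 were tested, and all 13 had a negative difference. At an unadjusted p under 0.05, 9 were lower and 0 higher (background 2.12% lower), and the median difference was -0.74. The 9 were Cxcl1, Cxcl2 and Cxcl3, chemokines that attract neutrophils, Ccl20, a chemokine for lymphocytes and dendritic cells, Nfkbia and Tnfaip3, which restrain NF-kappaB, the complement factor Cfb, the acute phase protein Saa3 and the protease inhibitor Slpi. With any 1 library left out, 6 to 11 members had an unadjusted p under 0.05 and the median lay between -0.93 and -0.53. Without up-half-left and the intact organoid together, 6 members had an unadjusted p under 0.05 and the median was -0.53.

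The promoters of Cxcl1, Cxcl2 and Nfkbia are shown because these genes had the smallest p-values of the list and carry a sequence of the kind NF-kappaB binds. Each run covers 250 bases before to 50 after the gene's start, read 5′ to 3′ on the gene's strand from RefSeq on GRCm38.p6, at chr5:90890995-90891294 (plus strand), chr5:90903649-90903948 (plus strand) and chr12:55492598-55492897 (minus strand). Capitals mark GGNNTTTCC, the core of the NF-kappaB motif, on either strand.
Cxcl1: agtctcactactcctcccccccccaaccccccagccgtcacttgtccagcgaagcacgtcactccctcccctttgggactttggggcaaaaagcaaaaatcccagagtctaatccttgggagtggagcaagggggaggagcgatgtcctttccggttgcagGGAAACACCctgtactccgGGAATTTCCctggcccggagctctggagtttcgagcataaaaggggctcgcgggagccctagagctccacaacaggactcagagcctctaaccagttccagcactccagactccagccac
Cxcl2: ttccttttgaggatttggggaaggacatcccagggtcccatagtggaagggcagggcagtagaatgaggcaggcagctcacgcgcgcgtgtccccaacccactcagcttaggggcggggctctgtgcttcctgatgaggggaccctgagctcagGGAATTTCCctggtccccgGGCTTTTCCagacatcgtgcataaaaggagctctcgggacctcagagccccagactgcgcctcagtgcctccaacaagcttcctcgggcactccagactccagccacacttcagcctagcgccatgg
Nfkbia: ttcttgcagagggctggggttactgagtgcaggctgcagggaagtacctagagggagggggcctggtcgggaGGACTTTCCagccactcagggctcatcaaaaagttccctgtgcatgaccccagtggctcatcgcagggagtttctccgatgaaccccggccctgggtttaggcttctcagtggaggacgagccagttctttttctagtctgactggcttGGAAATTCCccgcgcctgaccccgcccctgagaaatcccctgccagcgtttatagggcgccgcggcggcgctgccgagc
The motif occurred in 2 places in Cxcl1, 2 in Cxcl2 and 2 in Nfkbia. It was present in 8 of the 14 list genes with a promoter in the table (57.1%), and in 1913 of all 32851 promoters (5.82%). These are matches of letters, and binding was not measured.

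Cxcl1 had 158, 258, 283 and 261 TPM in half-pieces, against 511, 637, 369 and 369 TPM in quarter-pieces and 254 TPM in the intact organoid. All half-pieces lay below all quarter-pieces, and the intact organoid lay among the half-pieces (log2 difference -0.97 ± 0.24, SE; limma adjusted p = 0.869). Cxcl2 had 12.8, 20.8, 29.5 and 40.8 TPM in half-pieces, against 100, 142, 45.5 and 47.0 TPM in quarter-pieces and 30.3 TPM in the intact organoid. Up-half-left and up-half-right were the highest, while right-half came close to down-half-left (log2 difference -1.60 ± 0.40, SE; limma adjusted p = 0.869). Nfkbia averaged 81.6 ± 13.46 TPM in half-pieces and 127 ± 34.9 TPM in quarter-pieces (SD, n = 4 each), and left-half, at 100.26 TPM, overlapped with down-half-right, at 100.22 TPM. Cfb had 9.75, 27.4, 15.0 and 147 TPM in half-pieces, against 136, 97.2, 62.7 and 165 TPM in quarter-pieces and 51.6 TPM in the intact organoid. For Cfb right-half was unlike the other 3 half-pieces and lay among the quarter-pieces.

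The genes with the largest differences in this direction included others with a role in inflammation. Steap4, a metalloreductase induced by inflammation, had 5.91, 16.8, 8.2 and 21.7 TPM in half-pieces, against 67.7, 40.1, 41.8 and 30.5 TPM in quarter-pieces and 12.8 TPM in the intact organoid (log2 difference -1.80 ± 0.41, SE; limma adjusted p = 0.869). Pglyrp1, a secreted protein that binds bacterial cell wall, had 32.7, 51.6, 45.1 and 55.4 TPM in half-pieces, against 177, 128, 89.1 and 93.4 TPM in quarter-pieces and 126 TPM in the intact organoid (log2 difference -1.35 ± 0.25, SE; limma adjusted p = 0.869). Tnf, the cytokine TNF, was low throughout, at 0 to 1.64 TPM in half-pieces and 3.18 to 9.91 TPM in quarter-pieces. The rest were Atp2b4, a calcium pump (log2 difference -1.79), Exoc3l4 (-1.53), Nab2, a repressor of EGR1 (-1.53), Tnip3, a partner of TNFAIP3 (-1.27), and the near-identical histone genes Hist1h2bq (-1.25) and Hist1h2br (-1.19), between which reads can be split. The summed level of the 8 immune genes was 1.15 to 2.36 TPM in half-pieces, 3.08 to 7.24 TPM in quarter-pieces and 3.08 TPM in the intact organoid. Most of this sum came from Cd68 and Csf1r, at low levels, and 3 of the 8 genes were at 0 in all libraries. Only Cd68, a lysosomal gene of macrophages, was high enough to be tested (0.94 to 2.03 TPM in half-pieces and 2.32 to 4.62 TPM in quarter-pieces). Ptprc, which defines blood cells, was at 0 in all libraries but up-half-left, at 0.09 TPM. The part of immune cells in the result was not tested.

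**Figure D2:**
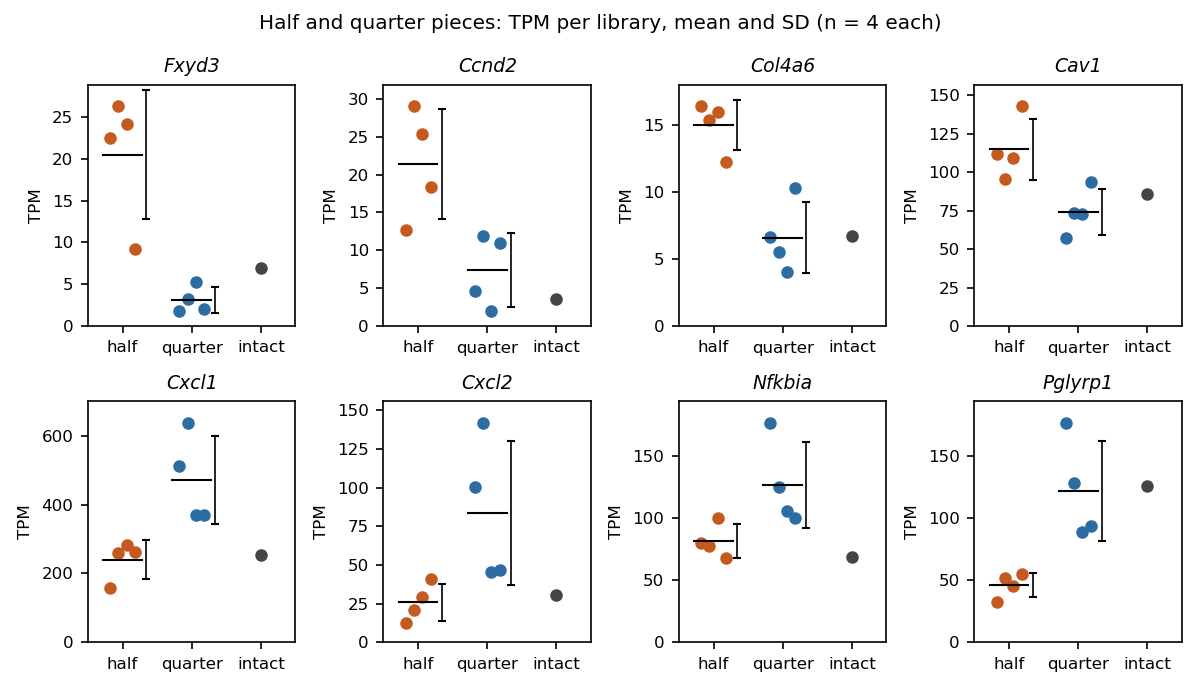
TPM of 8 genes in half-pieces, quarter-pieces and the intact organoid; points are libraries, horizontal lines are means and bars are SD (n = 4 each, and 1 intact organoid). Fxyd3, Ccnd2, Col4a6 and Cav1 are higher in half-pieces; Cxcl1, Cxcl2 and Pglyrp1 are lower without overlap, and for Nfkbia left-half (100.26 TPM) meets down-half-right (100.22 TPM).

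Of 11 antigen presentation genes 3 were higher in half-pieces at an unadjusted p under 0.05 (background 3.20% higher). All 3 were of the class II pathway: H2-Aa (log2 difference 1.21), H2-Ab1 (1.08) and their activator Ciita (0.91). H2-Eb1, another class II gene, had 227, 97.1, 152 and 3.45 TPM in half-pieces, against 12.8, 37.3, 46.0 and 2.99 TPM in quarter-pieces and 83.1 TPM in the intact organoid, so right-half and down-half-right were its lowest libraries. Of the whole list, 6 members had an unadjusted p under 0.05 without right-half, 1 without up-half, 1 without left-half and 0 without up-half-left. The class I gene H2-D1 had 559 TPM in right-half and 518 TPM in down-half-right, against 127 to 136 TPM in the other half-pieces, 176 to 434 TPM in the other quarter-pieces and 161 TPM in the intact organoid. Of 20 proliferation genes, 0 had an unadjusted p under 0.05 for half-pieces minus quarter-pieces and the median was 0.23. Without up-half-left, whose proliferation genes were high, 9 members had an unadjusted p under 0.05 and the median was 0.66. The median was -0.12 without up-half-right and -0.17 without down-half-left. With any 1 library left out, 480 to 1724 of all genes had such a p, so these counts move with the background. The intact organoid did not lie on 1 side. It was nearer to the quarter-mean for 154 of the 281 genes that were higher in half-pieces without overlap and for 74 of the 173 that were lower, compared with 7319 of 15017 genes in all.

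The interferon response list separated single libraries more than groups. Its 14 antiviral genes summed to 139, 188, 209 and 1099 TPM in up-half, down-half, left-half and right-half, to 276, 356, 477 and 764 TPM in up-half-left, up-half-right, down-half-left and down-half-right, and to 382 TPM in the intact organoid. Right-half and down-half-right were high, and the other 3 half-pieces were the lowest libraries. For half-pieces minus quarter-pieces 1 of the 14 was lower at an unadjusted p under 0.05 (Mx1, an antiviral GTPase, background 2.12% lower), with a median of -0.75. Without right-half 13 of the 14 were lower at an unadjusted p under 0.05, where 6.38% of all genes had such a p in either direction, and the median was -1.51. With any other single library left out the count was 0 to 2, and the median was -0.47 without up-half and -0.24 without down-half.

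Isg15 and Ifit3 stand for this list, and their promoters are shown because they carry the repeated GAAA pattern of interferon-stimulated response elements. The runs, from RefSeq on GRCm38.p6, lie at chr4:156200769-156201068 (minus strand) and chr19:34583279-34583578 (plus strand). Capitals mark GAAANNGAA on either strand.
Isg15: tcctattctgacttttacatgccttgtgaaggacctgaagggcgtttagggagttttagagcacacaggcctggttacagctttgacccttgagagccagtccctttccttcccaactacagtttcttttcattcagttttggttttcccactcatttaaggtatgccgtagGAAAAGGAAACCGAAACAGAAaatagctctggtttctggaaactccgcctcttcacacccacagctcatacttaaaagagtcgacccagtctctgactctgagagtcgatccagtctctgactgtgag
Ifit3: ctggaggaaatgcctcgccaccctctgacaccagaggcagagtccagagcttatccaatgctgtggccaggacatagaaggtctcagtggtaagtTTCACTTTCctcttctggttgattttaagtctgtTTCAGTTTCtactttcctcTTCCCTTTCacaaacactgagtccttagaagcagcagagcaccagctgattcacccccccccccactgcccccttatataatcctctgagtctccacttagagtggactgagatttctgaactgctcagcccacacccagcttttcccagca
The 3 matches in Isg15 overlap one another, and Ifit3 has 3 separate ones. Of the 9 list genes with a promoter in the table, 6 held the motif (66.7%), as did 2812 of all 32851 promoters (8.56%). Here too these are matches of letters, and binding was not measured. The list is made of interferon response genes, so the share describes the list and not these pieces. Isg15, a ubiquitin-like antiviral protein, had 0.8, 1.69, 5.01 and 79.6 TPM in half-pieces, against 12.2, 12.54, 23.5 and 46.2 TPM in quarter-pieces and 8.63 TPM in the intact organoid. Ifit3, which belongs to a family that binds viral RNA, had 25.1, 40.8, 35.6 and 252.5 TPM in half-pieces, against 61.5, 103.2, 103.1 and 198 TPM in quarter-pieces and 95.9 TPM in the intact organoid. In both genes right-half was the highest library and the other 3 half-pieces were the lowest. Ifitm3 and Ly6e, further interferon-induced membrane proteins singled out after their values were seen, had limma adjusted p-values of 0.0214 and 0.0216 for half-pieces minus quarter-pieces only when right-half was left out. With all libraries Ly6e had 35.2, 83.1, 52.3 and 381 TPM in half-pieces, against 759, 632, 1041 and 286 TPM in quarter-pieces and 1020 TPM in the intact organoid.

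**Figure D3:**
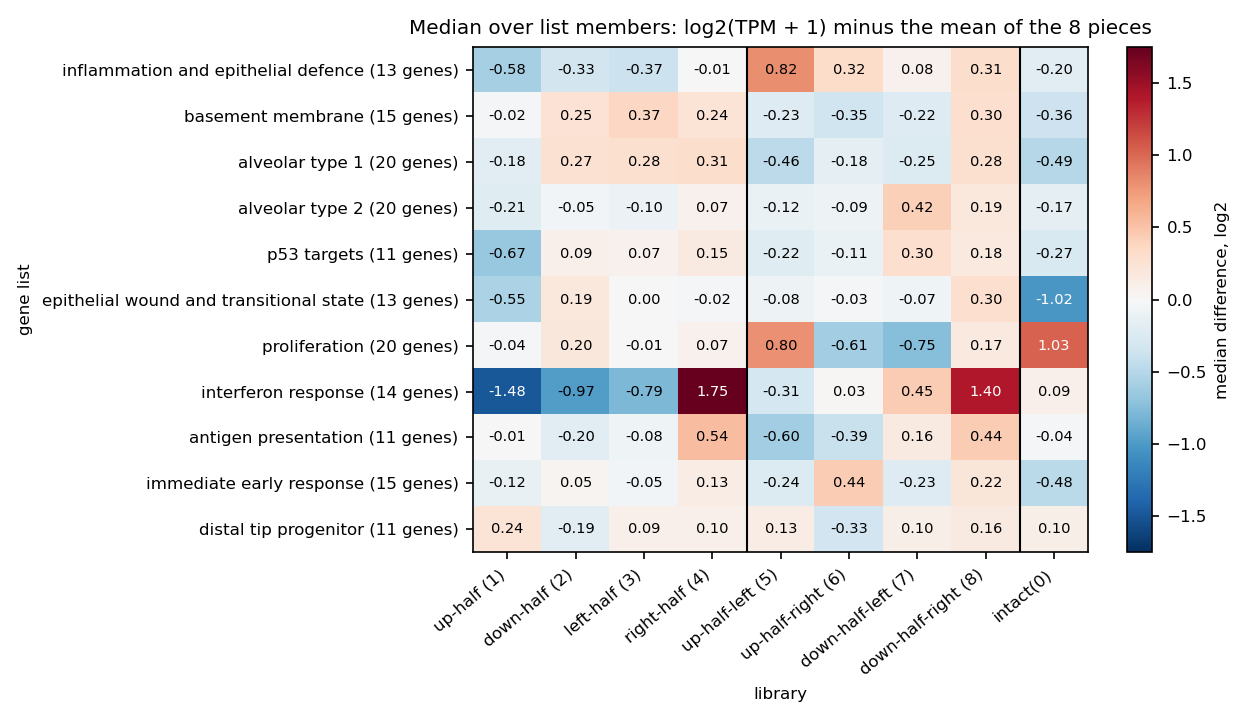
Median over the tested members of 11 gene lists of the difference between a library's log2(TPM + 1) and the mean of the 8 pieces, with half-pieces at the left, quarter-pieces in the middle and the intact organoid at the right. The interferon response row runs between -1.48 (up-half) and 1.75 (right-half), and the proliferation row is highest in the intact organoid (1.03) and up-half-left (0.80).

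The comparison by height asked whether up and down pieces differed. Again no gene passed the test, and the type 1, type 2, p53 target and epithelial wound lists had 5 to 8 members each that were lower in up pieces at an unadjusted p under 0.05. For up minus down, 0 of 15017 genes (0%) had a limma adjusted p under 0.05, and the smallest adjusted p was 1. At an unadjusted p under 0.05, there were 663 genes (4.41%), of which 163 (1.09%) were higher and 500 (3.33%) lower in up pieces. The groups did not overlap for 275 genes (1.83%) that were higher and 974 (6.49%) that were lower, 8.32% in all. The median over all genes was -0.08.

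Mt2, a metallothionein that binds zinc and copper, had 71.9, 120 and 90.1 TPM in up-half, up-half-left and up-half-right, against 36.4, 13.45 and 45.1 TPM in down-half, down-half-left and down-half-right, and 44.6 TPM in the intact organoid (log2 difference 1.67 ± 0.39, SE; limma adjusted p = 1). Id3, an inhibitor of differentiation factors downstream of BMP signalling, had 122, 46.1 and 42.7 TPM in up pieces, against 22.7, 35.1 and 28.4 TPM in down pieces. Its difference rested mainly on up-half: it was 2.37 between half-pieces and 0.48 between quarter-pieces. The other genes named on this side were Tmsb15b2, Prss36, Nme5, Phyhd1, Lipt2, Gon7, Nutf2-ps1 and Rps18-ps3, with log2 differences between 0.92 and 2.56.

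On the lower side, Gsta1, a detoxifying glutathione transferase, had 0, 2.88 and 4.68 TPM in up pieces, against 11.6, 5.88 and 15.5 TPM in down pieces and 1.64 TPM in the intact organoid. Ccr6, the receptor for Ccl20, had 1.08, 0.82 and 0.4 TPM in up pieces, against 7.07, 1.48 and 7.95 TPM in down pieces and 1.58 TPM in the intact organoid. By the rule that named them, neither overlapped between the groups. Their log2 differences were -2.004 ± 0.56 and -1.69 ± 0.45 (SE, limma adjusted p = 1 for each). The rest were Cfap45, a cilia protein (log2 difference -1.91), Gdpd3, a phosphodiesterase (-1.87), Fkbp1b (-1.88), Cox6a2, a subunit of cytochrome oxidase (-1.67), Ifi44, an interferon-induced gene (-1.66), Pagr1a (-2.70), and the pseudogenes Rps12l1 (-3.70) and Hist1h2al (-2.63).

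Of 20 type 1 genes, 8 were lower in up pieces at an unadjusted p under 0.05 and 0 higher (background 3.33% lower), 7 were lower without overlap (background 6.49%), and the median was -0.48. The difference was below 0 for 18 of the 20, and Igfbp2 was among the others (log2 difference 0.96). Aqp5, the water channel of type 1 cells, had 212, 157 and 308 TPM in up pieces, against 386, 414 and 340 TPM in down pieces and 232 TPM in the intact organoid (log2 difference -0.80 ± 0.25, SE; limma adjusted p = 1). The others were Cldn18, Gprc5a, Emp2, Lmo7, Rtkn2, Timp3 and Vegfa. Of 20 type 2 genes, 8 were lower and 0 higher at that p (background 3.33% lower), 5 were lower without overlap (background 6.49%), and the median was -0.36. The difference was below 0 for 17 of the 20, and Sftpc lay near 0 (log2 difference 0.02). Ctsh, a protease that processes surfactant proteins, had 2045, 1831 and 1737 TPM in up pieces, against 3067, 2974 and 2286 TPM in down pieces and 1674 TPM in the intact organoid (log2 difference -0.56 ± 0.14, SE; limma adjusted p = 1). Both counts depended on the scaling: with median-ratio rescaling they were 5 and 1. The type 1 count was 5 without down-half-right, and the type 2 count was 4 without up-half, 5 without up-half-right, 2 without down-half-left and 5 without down-half-right.

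Of 11 p53 target genes, 5 were lower in up pieces at an unadjusted p under 0.05 and 0 higher (background 3.33% lower), with a median of -0.44. Phlda3, an inhibitor of AKT, had 5.08, 8.39 and 15.8 TPM in up pieces, against 22.2, 22.4 and 21.3 TPM in down pieces and 12.4 TPM in the intact organoid. Cdkn1a, which halts the cell cycle, had 40.2, 69.9 and 117 TPM in up pieces, against 125, 188 and 115 TPM in down pieces, so up-half-right lay among the down pieces. The others were Ccng1, Eda2r and Zmat3, and the count was 3 without up-half, 3 without up-half-left and 2 without down-half-left. Of 13 genes tested from the epithelial wound and transitional state list, 5 were lower (Itgb6, Plaur, Fosl1 and Tnc among them) and 1 was higher (Clu) at an unadjusted p under 0.05 (background 3.33% lower and 1.09% higher), and the median was -0.56. That count was 2 without up-half, without up-half-right or without down-half-left, and 3 without down-half. The proliferation genes did not go 1 way: none of 20 had an unadjusted p under 0.05, and the median was 0.15 with all libraries, -0.46 without up-half-left, -0.38 without down-half-left and 0.66 without up-half-right.

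**Figure D4:**
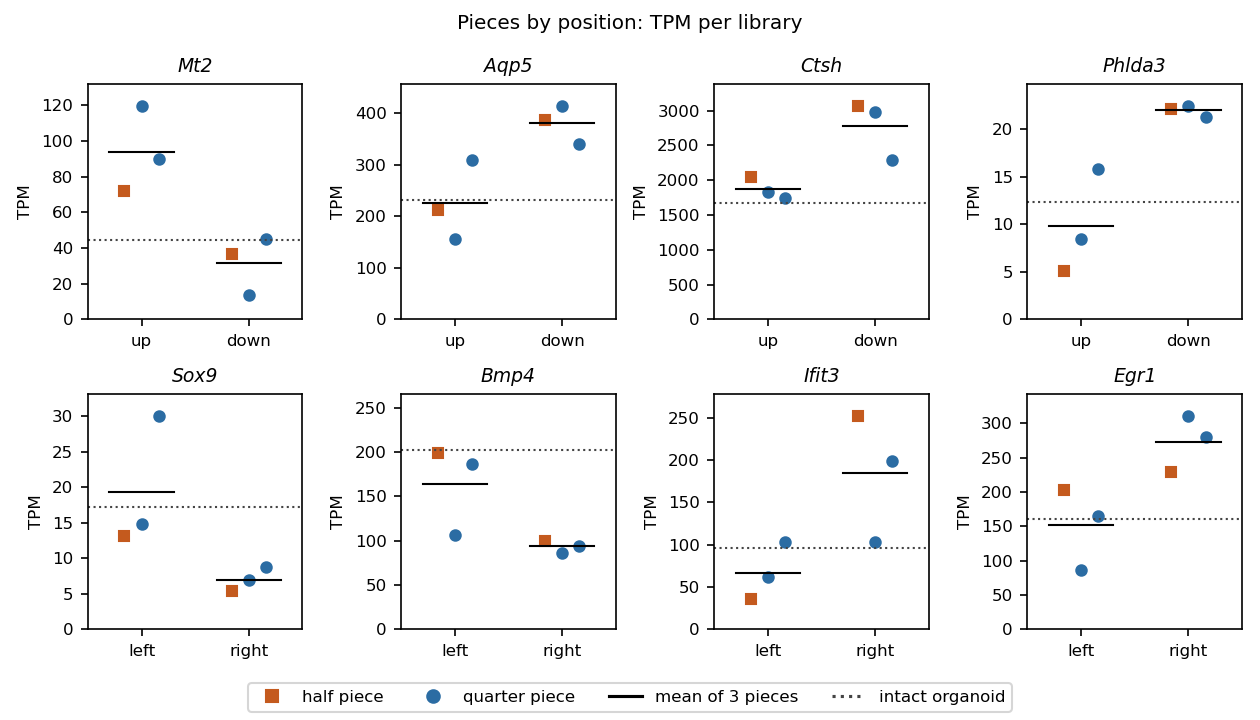
TPM of 4 genes in up and down pieces (top row) and of 4 genes in left and right pieces (bottom row); squares are half-pieces, circles quarter-pieces, solid lines means of 3 pieces and dotted lines the intact organoid. Mt2 is higher and Aqp5, Ctsh and Phlda3 are lower in up pieces; Sox9 and Bmp4 are higher and Egr1 is lower in left pieces, and Ifit3 is highest in right-half (252.5 TPM) and down-half-right (198 TPM).

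Left and right pieces gave the fewest genes at an unadjusted p under 0.05 of the 4 comparisons. For left minus right, 0 of 15017 genes (0%) had a limma adjusted p under 0.05, and the smallest adjusted p was 1. At an unadjusted p under 0.05, there were 463 genes (3.08%), of which 216 (1.44%) were higher and 247 (1.64%) lower in left pieces. The groups did not overlap for 392 genes (2.61%) that were higher and 533 (3.55%) that were lower, 6.16% in all. The right pieces include right-half and down-half-right, which shared high Cwc22, and the left pieces include up-half-left, which lacked Y-linked transcripts. Eif2s3y was accordingly among the named genes, at 69.8, 0 and 65.2 TPM in left pieces, against 89.3, 71.8 and 91.0 TPM in right pieces.

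Sox9, the tip progenitor factor, had 13.1, 14.8 and 30.1 TPM in left-half, up-half-left and down-half-left, against 5.35, 6.91 and 8.72 TPM in right-half, up-half-right and down-half-right, and 17.2 TPM in the intact organoid (log2 difference 1.28 ± 0.54, SE; limma adjusted p = 1). Bmp4, a growth factor secreted at the tips, had 199, 106 and 186 TPM in left pieces, against 99.9, 85.8 and 94.4 TPM in right pieces and 202 TPM in the intact organoid (log2 difference 0.76 ± 0.31, SE; limma adjusted p = 1). Id2, which also marks the tips, had 278, 285 and 280 TPM in left pieces, against 185, 190 and 229 TPM in right pieces. These 3 members of the distal tip list were higher in left pieces without overlap (background 2.61%). Etv4, a target of FGF signalling at the tips, was lower without overlap (log2 difference -0.26, background 3.55%). Up-half, which is neither left nor right, had 29.2 TPM of Sox9, 241 TPM of Bmp4 and 570 TPM of Id2. Of 11 genes tested from the distal tip list, 2 were higher at an unadjusted p under 0.05 (Sox9 and Bmp4; background 1.44% higher), and the median was 0.14. The difference was above 0 for 7 of the 11 and below 0 for 4, with the lowest value for Shh, a signal secreted by the epithelium (log2 difference -0.54). The count was 1, with a median of -0.05, without up-half-right and 0 without right-half, down-half-left or down-half-right.

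Immediate early genes respond within minutes of a stimulus. Of 15 such genes, 6 were lower in left pieces at an unadjusted p under 0.05 and 0 higher (background 1.64% lower), with a median of -0.35. Egr1, an early transcription factor, had 203, 86.7 and 165 TPM in left pieces, against 229, 311 and 280 TPM in right pieces and 161 TPM in the intact organoid. Fos, a subunit of AP-1, had 23.2, 7.02 and 17.6 TPM in left pieces, against 20.7, 88.8 and 28.2 TPM in right pieces, so up-half-right stood apart and right-half lay among the left pieces. The others were Jun, Zfp36, Ier2 and Dusp1. The difference was above 0 for 4 of the 15, and Egr2 was higher in left pieces without overlap (log2 difference 1.01). The count was 3 without up-half-left, 1 without up-half-right and 2 with median-ratio rescaling.

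The interferon response list was lower in left pieces in 14 of 14 genes, as were 8237 of 15017 genes in all, with a median of -1.22. Of the list, 5 were lower at an unadjusted p under 0.05 (Mx1, Ifit1, Rsad2 and Ifit3 among them, background 1.64% lower). All 14 were also below 0 for half-pieces minus quarter-pieces (median -0.75) and for up minus down (median -0.89, with 0 at that p). For left minus right the median was -2.79 between half-pieces and -0.58 between quarter-pieces. Without right-half the count was 1 and the median -0.42, and without down-half-right the count was 2. Without both, no member had an unadjusted p under 0.05 and the median was -0.02. Mx1, Ifit1, Tgtp2 and Neurl3, a ubiquitin ligase, were also among the 10 named genes on this side, with log2 differences between -2.01 and -1.72. The rest of that side were the signal recognition particle RNA copies Rn7s1 and Rn7s2, which have identical values, Pdcd5-ps, Hist2h2aa1 and Zfp984.

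On the other side, H2-T22, a nonclassical class I gene, had 30.7, 17.9 and 18.1 TPM in left pieces, against 6.8, 12.8 and 1.73 TPM in right pieces and 26.3 TPM in the intact organoid. Right-half and down-half-right were again the 2 libraries that stood apart. Habp2, a serine protease, had 4.02, 4.3 and 7.96 TPM in left pieces, against 0.48, 0.86 and 0.85 TPM in right pieces and 4.56 TPM in the intact organoid (log2 difference 1.85 ± 0.44, SE; limma adjusted p = 1). Rgs4, which shortens G protein signals, had 66.2, 69.6 and 135.5 TPM in left pieces, against 29.5, 20.3 and 40.3 TPM in right pieces and 51.9 TPM in the intact organoid. Both were named because all 3 left pieces lay above all 3 right pieces. The same direction in half-pieces and in quarter-pieces follows from that rule and adds no support. The rest were Isl1, a homeobox factor (log2 difference 2.17), Slc2a3 (1.99), A2m, a protease inhibitor (1.96), Scamp5 (1.47), Sorbs2 (1.44), Ak1, an adenylate kinase (1.31), and the pseudogene Rps12-ps1 (2.43).

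Against the 1 intact library, the difference was above 0 for all 13 genes tested from the epithelial wound and transitional state list and below 0 for all 20 proliferation genes. No gene passed the test: 0 of 15017 (0%) had a limma adjusted p under 0.05 for pieces minus intact, with a smallest adjusted p of 0.332. At an unadjusted p under 0.05, there were 681 genes (4.53%), of which 455 (3.03%) were higher and 226 (1.50%) lower in pieces. With 1 intact library, all 8 pieces lay above it for 1577 genes and below it for 1274 (8.48%), together 19.0% of genes. The fit assumes that a second intact organoid would have varied like the pieces.

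The gene with the smallest p was Sgk1, a kinase induced by steroid hormones and cell stress, at 25.2, 43.8 and 50.5 TPM (lowest, median and highest) in the 8 pieces, against 10.3 TPM in the intact organoid (log2 difference 1.86; limma adjusted p = 0.332). It was singled out after its values were seen. Of 13 genes tested from the epithelial wound and transitional state list, 13 were higher in pieces than in the intact organoid. At an unadjusted p under 0.05, 7 were higher and 0 lower (background 3.03% higher), the median was 1.02, and the count in the alternatives run was 5 to 7. Areg, a ligand of the EGF receptor made by injured epithelium, had 46.9, 115 and 139 TPM (lowest, median and highest) in pieces, against 37.4 TPM in the intact organoid. Hbegf, another EGF receptor ligand, had 44.0, 50.8 and 75.1 TPM in pieces, against 29.2 TPM in the intact organoid. Cldn4, a tight junction protein, had 51.2, 141 and 182 TPM in pieces, against 36.2 TPM in the intact organoid. In these 3 genes all pieces lay above the intact organoid, as they did for 1577 of 15017 genes in all. Up-half was the lowest or among the 3 lowest pieces for each of the 3. Sfn, Itgb6 and Plaur were also among the 7.

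YAP targets respond to stretch and crowding. Of 10 genes, 3 were higher in pieces at an unadjusted p under 0.05 and 0 lower (background 3.03% higher), with a median of 0.41 and a difference above 0 for 8 and below 0 for 2. F3, the coagulation trigger tissue factor, had 21.9, 59.6 and 83.6 TPM in pieces, against 12.7 TPM in the intact organoid (log2 difference 2.06 ± 0.47, SE; limma adjusted p = 0.921). Ccn2, a secreted matrix regulator, had 29.0, 58.7 and 82.1 TPM in pieces, against 15.7 TPM in the intact organoid. Ccn1, its relative, had 65.6, 137 and 198 TPM in pieces, against 56.5 TPM in the intact organoid. All 8 pieces lay above the intact organoid in each, as they did for 1577 of 15017 genes in all. For F3, one of the genes named for a large difference, the rule that named it requires this. In the type 1 cell list 5 of 20 genes were higher in pieces at an unadjusted p under 0.05 (Cldn18, Emp2, Gprc5a, Krt7 and Hopx; background 3.03% higher), with a median of 0.49, and 8 were without down-half-left. Cldn18, a tight junction protein, had 614, 825 and 1145 TPM in pieces, against 451 TPM in the intact organoid. In the type 2 list 4 of 20 were higher (Rab27a, Ctsh, Sftpb and Napsa; background 3.03% higher), with a median of 0.17, and that count was 2 without down-half, 1 without left-half, 2 without right-half and 1 with median-ratio rescaling. The difference was above 0 for the 6 mesenchyme genes tested, as for 8206 of 15017 genes in all, with a median of 1.04. Col3a1 and Dcn were at 0 and Col1a1 at 0.39 TPM in the intact organoid, so they passed the filter through the pieces alone. Their direction is therefore no support for a difference. Pdgfra, which defines those cells, was at 0 in 6 pieces and in the intact organoid. The part of mesenchymal cells in the result was not tested.

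Over all genes, 8.48% had all 8 pieces below the 1 intact library. All 20 proliferation genes were lower in pieces. Of them 5 had an unadjusted p under 0.05 (background 1.50% lower), all 8 pieces lay below the intact organoid in 14, and the median was -1.03. Cenpf, a kinetochore protein, had 2.82, 3.87 and 8.39 TPM in pieces, against 25.9 TPM in the intact organoid (log2 difference -2.29 ± 0.51, SE; limma adjusted p = 0.921). Mki67, the marker of cycling cells, had 8.16, 21.1 and 34.8 TPM in pieces, against 47.2 TPM in the intact organoid. The highest piece for Mki67 was up-half-left, the piece that shared Xist with the intact organoid. The summed level of the list was 916 TPM in up-half-left and 316 to 591 TPM in the other 7 pieces, against 968 TPM in the intact organoid. Without up-half-left, 16 of 20 members had an unadjusted p under 0.05 and the median was -1.27; the count was 3 without up-half, 2 without left-half, 3 without right-half, 8 without down-half-left and 8 without down-half-right.

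**Figure D5:**
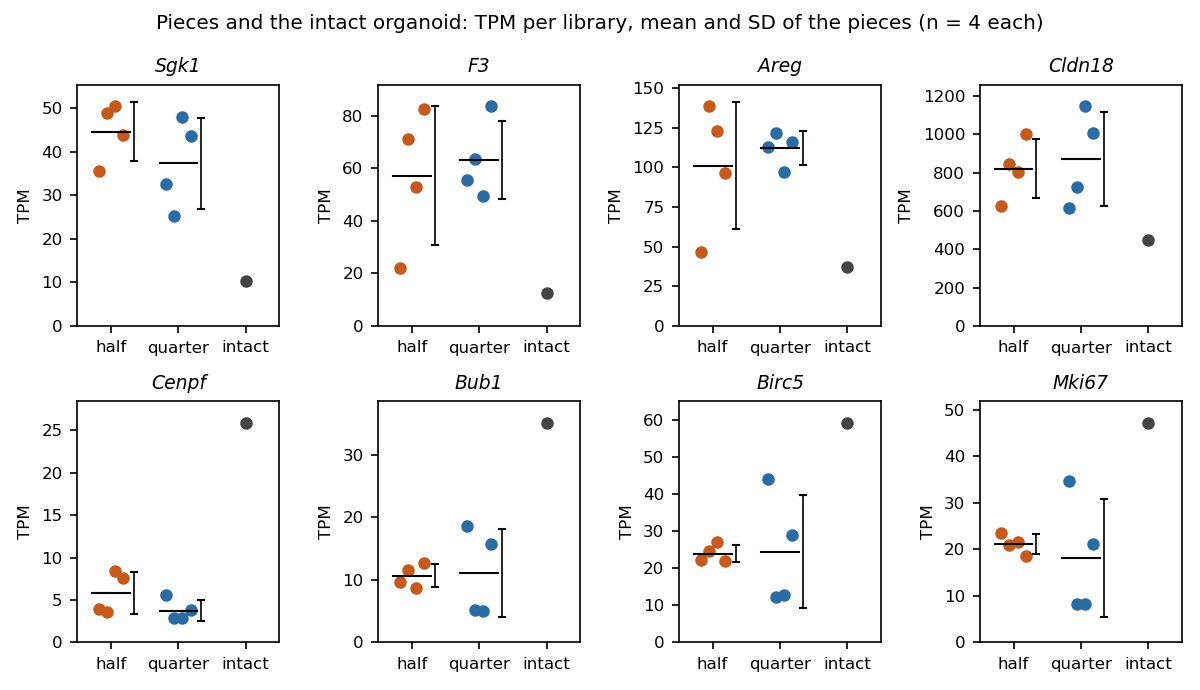
TPM of 8 genes in half-pieces, quarter-pieces and the intact organoid; points are libraries, horizontal lines are means and bars are SD (n = 4 each, and 1 intact organoid). Sgk1, F3, Areg and Cldn18 are higher in every piece than in the intact organoid, and Cenpf, Bub1, Birc5 and Mki67 are lower, with up-half-left highest of the pieces for Bub1, Birc5 and Mki67 (34.8 TPM).

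Of the 10 genes with the largest difference in each direction, several divided the libraries as the sex-linked transcripts did, and others were pseudogenes. Xist (log2 difference -6.34) was high in up-half-left as well as in the intact organoid. So were Kpna2 (-3.56) and Itln1 (-3.52), which are not sex-linked and lie on chromosomes 11 and 1. Kdm5d (3.27) was at 0.15 TPM in up-half-left, against 9.92 to 18.3 TPM in the other pieces and 0.06 TPM in the intact organoid. Among the rest, Chac1, a stress-induced enzyme that degrades glutathione, had 2.99, 15.4 and 33.1 TPM in pieces, against 1.06 TPM in the intact organoid (log2 difference 2.83 ± 0.69, SE; limma adjusted p = 0.921). Gprc5b, a receptor, had 3.43 to 8.8 TPM in pieces, against 0.26 TPM in the intact organoid, and Col12a1, a fibril-associated collagen, had 1.81 to 12.7 TPM in pieces, against 0.66 TPM in the intact organoid. In each of these 3 genes every piece lay above the intact organoid, which the rule that named them requires. The other named genes on the higher side were Snurf, Rpl9-ps6, Smim4, Zfp968, F3 and Glipr1, and on the lower side Rps24-ps3, Rps19-ps6, Rps12l1, Hmga1b, Fcor, Tbx3os1 and Cenpf.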

How the data were processed

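Total RNA was taken with TRIzol and sequenced on an Illumina instrument after library preparation with a VAHTS mRNA-seq v2 kit, per the labels' protocols. The deposited table holds TPM per gene, made by the authors with Bowtie2 and RSEM on mm10, per the submitters' processing notes; versions and the gene annotation are not given in the sources used here. TPM keeps no read depth, so no counting error can be given. Each column was tied to a sample through its title; 1 further column fitted no sample and was not used. The members and gene lists were chosen with earlier results of these data known.

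Of 55260 genes, 15017 with at least 1 TPM in at least 2 libraries were tested on log2(TPM + 1) with limma 3.58.1 in R 4.3.3, in 1 fit with terms for size, height, side and pieces against intact (4 residual degrees of freedom), moderated variances with a trend, and Benjamini-Hochberg adjustment at 0.05. Fold changes on this scale understate the change of low genes. The 10 genes per direction with the largest differences were named, without predicted or mitochondrial genes, from those whose groups did not overlap and whose higher side averaged at least 5 TPM, since none passed the test; members of lists were named at an unadjusted p under 0.05, and genes chosen after their values were seen are said to be so. A list is described by its count at an unadjusted p under 0.05 and its median beside those of all genes, with no test of the list; some list members are not reported here by name. Library measures were compared by exact permutation tests (scipy 1.17.1). Gene coordinates are from GENCODE M21 (mm10), matched for 55260 genes, and promoters from RefSeq on GRCm38.p6; the motif letters were settled after a first search with longer motifs, so their shares are descriptions. The fit was tested on simulated data. Alternatives were a pseudocount of 0.1 TPM, other filters, median-ratio and quantile scaling, no trend, only the groups compared, and each library left out. Protein-coding genes alone and 2 pairs of libraries left out were added after seeing the data.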

Additional observations from a re-analysis of the deposited data

Results flagged for a closer look

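Within the 4 half-pieces or the 4 quarter-pieces, 1 library stood far from the other 3 in 20 of 164 sets of values examined (12.2%). Chance flags about 1 in 20 groups of unselected values, but most of these genes were named for a large difference between groups of the same libraries, so that share is no background for this count. Right-half stood apart in 7 of the genes. It was low for Fxyd3 (9.16 TPM, against 22.5 to 26.3 TPM in the other half-pieces), H2-T22 (6.8 TPM, against 26.7 to 30.7 TPM), Scamp5 (2.11 TPM, against 11.3 to 15.1 TPM) and Hmga1b (0 TPM, against 27.4 to 36.3 TPM). It was high for the interferon-induced Tgtp2 (12.3 TPM, against 0.37 to 0.72 TPM) and Mx1 (5.5 TPM, against 0 to 0.16 TPM), and for the histone gene Hist2h2aa1 (8.31 TPM, against 0 in the others).

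Up-half was at 0 for Tnf (others 1.48 to 1.64 TPM), Pagr1a (others 10.7 to 16.5 TPM) and Hist1h2al (others 9.9 to 15.2 TPM), and alone had Tmsb15b2 (3.36 TPM, others 0). Down-half was low for Phyhd1 (1.63 TPM, others 5.28 to 5.53 TPM). Left-half was lowest for Eif2s3y (69.8 TPM, others 89.3 to 92.8 TPM).

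Among quarter-pieces, up-half-left was at 0 for Eif2s3y (others 65.2 to 91.0 TPM) and up-half-right was at 0 for Rps12l1 (others 252 to 499 TPM). Down-half-left was at 0 for Moap1 (others 2.99 to 4.12 TPM) and high for Ak1 (34.1 TPM, others 6.54 to 8.04 TPM). Down-half-right was low for H2-T22 (1.73 TPM, others 12.8 to 18.1 TPM) and alone had the pseudogene transcripts Rps24-ps3 (810 TPM, others 0) and Rps19-ps6 (177 TPM, others 0).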

How the results depend on the processing

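With all 9 libraries, limma called 0 genes in each comparison under every alternative setting but 1. With no filter beyond a TPM above 0 in 1 library, where 22773 genes were tested, pieces minus intact gave 184 genes (7 of them higher). That filter lets in genes found only in the intact organoid, which has no replicate. Such genes are at 0 in every piece and so have no spread. These calls are therefore no support for a difference, and how many of the 184 are such genes was not counted. With 1 library left out, half-pieces minus quarter-pieces gave 0 to 6 called genes, up minus down 0 to 1, left minus right 0 to 1 and pieces minus intact 0 to 4. The 6 came without right-half (Ly6e, Ifitm3, Antxr1, Rpl14-ps1 and 2 predicted genes), and the 4 came without up-half-left (Xist, Eif2s3y, Ddx3y and Kdm5d). Half-pieces minus quarter-pieces gave 5 without right-half and down-half-right together. Genes at an unadjusted p under 0.05 for half-pieces minus quarter-pieces numbered 480 without left-half and 1724 without down-half-right, against 799 with all libraries. For left minus right they numbered 770 without up-half-left, against 463. The 80 genes named for the largest differences, with Rps12l1 counted in 2 comparisons, kept their sign under every setting. They were named because their groups did not overlap, so this outcome was largely fixed in advance. Gprc5b was called only without the filter, in the comparison with the 1 intact library, so its call is no support for a difference either. The cause of these changes was not tested. No paired analysis was possible because the groups share no replicate numbers; pieces that match in position are already set against each other through the size, height and side terms of the fit. Each position has 1 library, the intact organoid has no replicate, and TPM keeps no depth.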
